A study of Arabidopsis thaliana with 8 samples.

Results

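The TRICHOME BIREFRINGENCE-LIKE (TBL) genes of Arabidopsis thaliana are described here through the 22 probe sets that carry exactly 1 annotated gene with a symbol of TBL and a number. They were taken from 13513 probe sets with exactly 1 annotated gene, and each of the 22 stands for a different gene. RNA from whole shoots of the line Col-1, at the stage of 4 rosette leaves on agar plates with a 16 h photoperiod and harvest 6 h into the day, was measured on 8 ATH1 arrays. The arrays carried spike mix 1, 2, 3, 4, 5, 6 or 7, or a reference spike mix, with 1 array for each. In a spike mix, extra RNAs are put into a sample, and the labels give the same shoots for all 8 arrays and name none of those RNAs. Whether the 8 arrays share an RNA extract is not stated in the labels, so the spread over arrays may be only technical. The study compares array platforms, so the question for the TBL genes is how steady their signals were across arrays of the same kind of tissue.

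TBL proteins are plant-specific and share the DUF231 domain. Several of them are enzymes of the Golgi apparatus that move acetyl groups onto wall polysaccharides such as xylan, mannan, xyloglucan and pectin. Acetylation changes how these polymers bind to each other and to cellulose, and plants that lack the main xylan acetyltransferase have collapsed xylem vessels and are small. The family takes its name from TRICHOME BIREFRINGENCE (TBR), a gene needed for crystalline cellulose in leaf hairs. The gene table used for naming lists 46 genes of the family by symbol or synonym. Of these, 22 are the members, 2 more have probe sets under a locus name only (AT5G06700, which is TBR, and AT2G31110, which is TBL40), and 22 are not analysed here.

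Signals are linear MAS5 intensities, and a floor of 12.9, the 25th percentile of the whole table, was used for all values below it before log2 was taken. Between 73.6% and 77.0% of all 22810 probe sets lay above the floor on each array. The arrays of mixes 4, 5 and 6 stood apart from the others: the first principal component, outside controls and the 15 probe sets that spanned at least 16-fold, held 29.9% of the variance, with loadings of 0.28 to 0.53 for these 3 arrays and of -0.38 to -0.11 for the other 5. No TBL gene was among the 15. The leaf markers RCA, LHCB4.1, LHCB4.2 and PSAE-1 had mean signals of 3218 to 3902, high values for a leafy shoot. The root hair expansins EXPA7 and EXPA18 averaged 21.0 and 24.6 and were above the floor on all 8 arrays, although the tissue is labelled as shoot, so a signal just above the floor is not taken to show expression. The flower marker AT5G07230 never exceeded the floor. The trichome regulators SIM and TRY averaged 50.8 ± 4.59 and 28.4 ± 6.23 (SD, n = 8 arrays). In whole shoots, fewer cells of a type and less RNA per cell cannot be told apart. Probes differ in how brightly they bind, so signals of different TBL genes are not ranked against each other.

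TBL genes were above the floor on all 8 arrays about as often as probe sets in general. Of the 22, 15 were above the floor on all 8 arrays (68.2%), beside 62.2% of all probe sets with 1 gene. Another 6, TBL19, TBL20, TBL30, TBL41, TBL42 and TBL43, were above it on some arrays only, or 27.3%, beside 18.6% of all probe sets. TBL21 alone was at or under the floor on all 8, or 4.55%, beside 19.3%, with signals of 0.8 to 2.3.

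**Figure D1:**
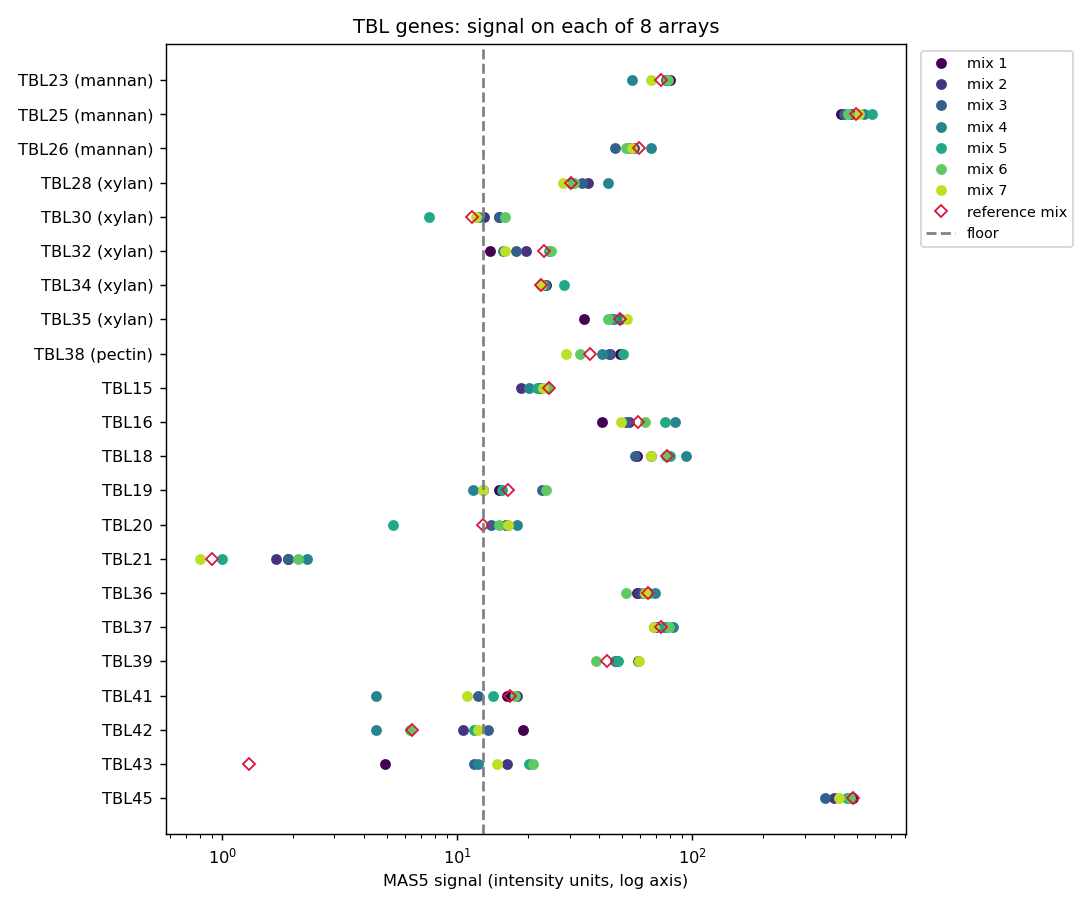
MAS5 signal (horizontal log axis, intensity units) of the 22 TBL genes, with a filled point for each of the 7 mixes, an open diamond for the reference mix and a dashed line at the floor of 12.9. Substrates given in brackets are background. TBL21 lies left of the floor on every array, 6 genes straddle it, and TBL25 and TBL45 lie between 364.8 and 582.4.

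The mannan acetyltransferases TBL23, TBL25 and TBL26 were above the floor on every array. TBL25 had signals of 429.7, 471.4, 440.5, 537.5, 582.4, 460.4 and 510.1 in mixes 1 to 7, against 495.8 on the reference array. Its values on the mix arrays lay on both sides of the reference, with mix 5 highest and mix 1 lowest, a range of 1.36-fold. TBL23 had 80.3, 77.3, 77.6, 55.1, 77.9, 78.5 and 66.3 in mixes 1 to 7, against 73.5 on the reference array. Mix 4 was the low array, with a log2 ratio of -0.42 to the reference array, and mix 7 was the next lowest. TBL26 had 54.4, 56.3, 46.9, 66.3, 54.0, 52.1 and 55.5 in mixes 1 to 7, against 59.1 on the reference array. For TBL26 mix 4 was the highest array, so these 3 genes of the same activity did not share a highest or a lowest array. The ranges of TBL23 and TBL26 were 1.46-fold and 1.41-fold.

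Among xylan acetyltransferases, TBL28, TBL32, TBL34 and TBL35 were above the floor on all 8 arrays, and TBL30 on 4. TBL32 and TBL34 averaged 19.4 and 23.8, near the root hair expansins EXPA7 and EXPA18, so expression is not read from their signals. TBL35 had 34.7, 49.1, 46.3, 49.4, 45.3, 43.9 and 52.9 in mixes 1 to 7, against 49.3 on the reference array. The array of mix 1 was apart from the other 7, which lay between 43.9 and 52.9, and without it the range of TBL35 fell to 1.21-fold, against 1.52-fold with it. TBL34 had 23.9, 22.7, 23.4, 23.5, 28.4, 22.9 and 22.6 in mixes 1 to 7, against 22.7 on the reference array. Here mix 5 was apart and the other 7 arrays were almost level. Without mix 5 the range was 1.06-fold, against 1.26-fold with it. Leaving out the most distant array must narrow a range, so no conclusion is drawn from these changes in TBL35 and TBL34.

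TBL32 had 13.7, 19.5, 17.8, 15.6, 24.5, 24.9 and 15.9 in mixes 1 to 7, against 23.4 on the reference array. It was lower than the reference in 5 mixes and a little higher in mixes 5 and 6, with its log2 ratio farthest from 0 in mix 1, at -0.77. In that mix, 5.12% of the 3377 probe sets of like mean signal were at least as far from the reference array. That mix was picked as the farthest for TBL32, and the same share was between 17.3% and 82.8% in its other mixes. Like mean signal refers throughout to 4 equal bins of mean signal over all probe sets with 1 gene. The probe set of TBL32 is of a type that by its name can also detect transcripts of related genes, so its signal may not belong to TBL32 alone.

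TBL28 and TBL30 are neighbours in gene order, as the locus names AT2G40150 and AT2G40160 show. TBL28 had 30.4, 36.1, 33.8, 43.9, 31.1, 31.3 and 28.1 in mixes 1 to 7, against 30.5 on the reference array. Mix 4 was its highest array, with a log2 ratio of 0.53, and its range was 1.56-fold. TBL30 had 15, 13, 15, 12.3, 7.6, 16 and 12 in mixes 1 to 7, against 11.5 on the reference array. TBL30 was thus under the floor or close above it on every array, and no order can be read among the values under it. The other pair of neighbours, TBL21 (AT5G15890) and TBL19 (AT5G15900), held the member that was never above the floor beside a member that was above it on 5 arrays. TBL19 had its highest signals in mixes 6 and 3, at 23.9 and 22.8, against 16.4 on the reference array.

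TBL38, for which activity on pectin acetyl groups is known from seed coat cells, had 49.3, 44.4, 44.0, 41.2, 50.5, 33.2 and 29.0 in mixes 1 to 7, against 36.8 on the reference array. It was higher than the reference in mixes 1 to 5 and lower in mixes 6 and 7, a range of 1.74-fold. The SD of its log2 signal, 0.28, was above that of 83.4% of probe sets of like mean signal.

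The other members have no substrate that is given here. TBL16 had 41.4, 53.9, 52.3, 84.5, 76.4, 62.7 and 49.7 in mixes 1 to 7, against 58.5 on the reference array. TBL18 had 58.0, 66.8, 57.1, 93.6, 80.2, 77.4 and 66.5 in mixes 1 to 7, against 78.1 on the reference array. Both genes were highest in mix 4 and next highest in mix 5, and mix 1 was the lowest array of TBL16 and next to the lowest, mix 3, for TBL18. The highest arrays of TBL16, mixes 4, 5 and 6, are those that stood apart over all probe sets; their part in its spread was not tested. Without those 3 arrays the range of TBL16 was 1.41-fold, against 2.04-fold with them, and that of TBL18 was 1.37-fold against 1.64-fold. Leaving out the arrays with a gene's highest signals must narrow its range, so no conclusion is drawn from this. Of all probe sets with 1 gene, 1.77% were at least 2-fold from the reference array in any remaining mix, against 4.73% with all mixes. This share cannot rise when mixes are left out, so no conclusion is drawn from its fall either. With any single array left out, the range of TBL16 lay between 1.70-fold and 2.04-fold.

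TBL39 had 47.4, 47.9, 58.8, 46.9, 48.1, 39.0 and 59.0 in mixes 1 to 7, against 43.5 on the reference array. Mixes 3 and 7 were its high arrays and mix 6 its low one. TBL36 had 58.2, 58.6, 61.7, 69.5, 65.2, 52.4 and 62.7 in mixes 1 to 7, against 64.8 on the reference array. TBL37 had 69.9, 68.6, 76.6, 82.9, 75.7, 79.4 and 68.9 in mixes 1 to 7, against 73.4 on the reference array. TBL36 and TBL37 were both highest in mix 4, yet TBL37 spanned only 1.21-fold over the 8 arrays and TBL36 1.33-fold.

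TBL45 had 482.0, 400.6, 364.8, 457.9, 455.7, 465.9 and 420.2 in mixes 1 to 7, against 481.4 on the reference array. Mix 3 was its lowest array, with a log2 ratio of -0.40. In that mix, 5.45% of the 3378 probe sets of like mean signal were at least as far from the reference array. That mix was picked as the farthest for TBL45, and the same share was between 13.8% and 99.1% in its other mixes. TBL15 lay between 18.7 in mix 2 and 24.6 on the reference array, near the level of EXPA7 and EXPA18. TBL15 was thus lower than the shared reference array in all 7 mixes, with log2 ratios between -0.40 and -0.018. The reference array was also the highest for 9.60% of probe sets with 1 gene above the floor on all arrays. The remaining members, all near the floor, were TBL20 with 5.3 to 18.0, TBL41 with 4.5 to 17.9, TBL42 with 4.5 to 19.1 and TBL43 with 1.3 to 20.9. TBL43 was lowest on the reference array, and its signals of 20.2 in mix 5 and 20.9 in mix 6 were at least 1.57-fold and at least 1.62-fold above it, taken against the floor.

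**Figure D2:**
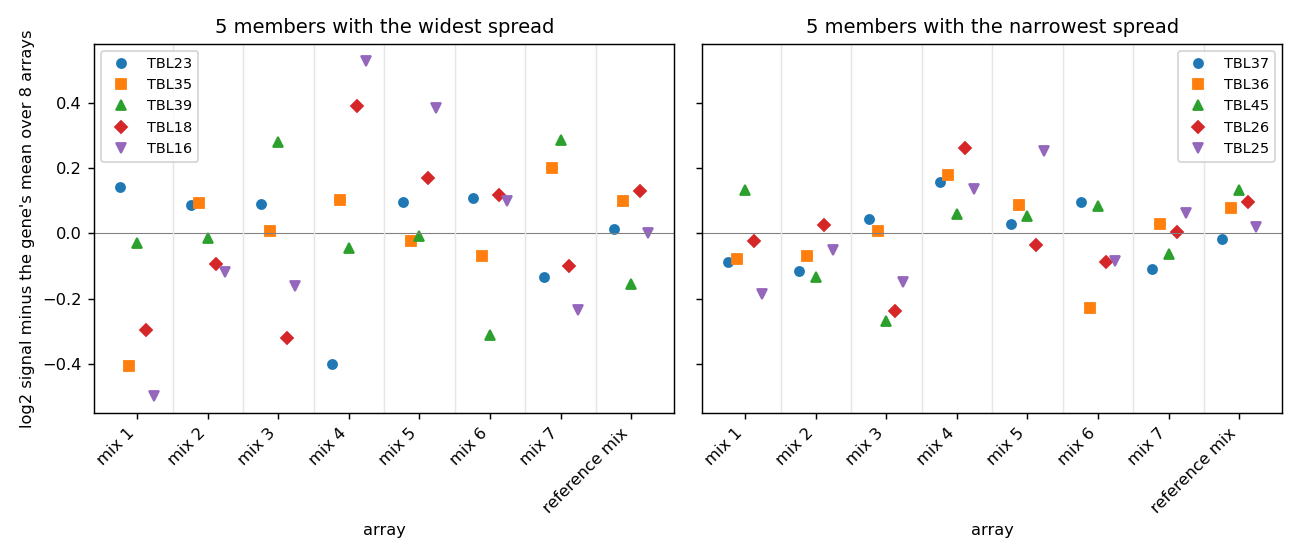
Log2 signal minus each gene's own mean over the 8 arrays (vertical axis), by array (horizontal axis), for the 5 members with the largest and the 5 with the smallest SD among the 10 with a mean signal of at least 42.5. TBL16 and TBL18 are highest in mix 4, where TBL23 is lowest, and TBL37 stays closest to its mean.

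Set against the reference array, no TBL gene lay 2-fold or more away in any mix. The count was 0 of 22, beside 4.73% of all probe sets with 1 gene, a share that corresponds to about 1 gene in 22. At 1.5-fold or more the count was 2 of 22, TBL32 (lower in mix 1) and TBL43 (higher in mixes 5 and 6), beside 23.4% of all probe sets. By mix, 2.35% of all probe sets were at least 1.5-fold lower in mix 1, and 5.08% and 8.41% were at least 1.5-fold higher in mixes 5 and 6. Each mix was measured on 1 array and all 7 comparisons share the same reference array, so no test was possible and a low count does not show that the genes did not differ.

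Medians over all 22 members, 7 of which were at or under the floor on some or all arrays, lay between -0.09 and 0.03. The log2 ratio to the reference had a median over the members of -0.02, -0.0029, 0.00, 0.03, 0.02, 0.0063 and -0.09 in mixes 1 to 7, beside 0.00 over all probe sets with 1 gene in every mix, many of which are held at the floor on both arrays. In mix 7, 14 of 22 members were lower than on the reference array and 5 were higher, beside 33.3% lower and 40.2% higher of all probe sets. In mixes 4 and 5, 12 members were higher and 6 lower, beside 44.4% higher and 31.0% lower of all probe sets in mix 4 and 41.9% and 33.1% in mix 5. With the other 7 arrays averaged as comparator, mix 7 had a median of -0.08. Under scaling to a common median the medians turned to 0.00 in mix 4, -0.024 in mix 5 and -0.064 in mix 6. The SD over the 8 arrays of the members' median level was 0.036 on the log2 scale. For the 15 members above the floor on all 8 arrays, the medians were -0.12, -0.07, -0.09, 0.11, 0.04, -0.02 and -0.09 in mixes 1 to 7. Over the 8399 probe sets above the floor on all arrays they were 0.0037, 0.0062, 0.02, 0.04, 0.02, 0.05 and 0.02. Of these 15 members, mixes 1 and 2 had 10 lower and mix 7 had 12 lower than the reference, while mixes 4 and 5 had 11 higher. Of the 8399 probe sets, 49.1%, 48.6% and 45.6% were lower in mixes 1, 2 and 7. In mixes 4 and 5, 56.8% and 53.8% of the 8399 were higher. These counts were not tested. The median level of the 15 had an SD of 0.070 over the 8 arrays, and all 7 ratios share the 1 reference array.

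**Figure D3:**
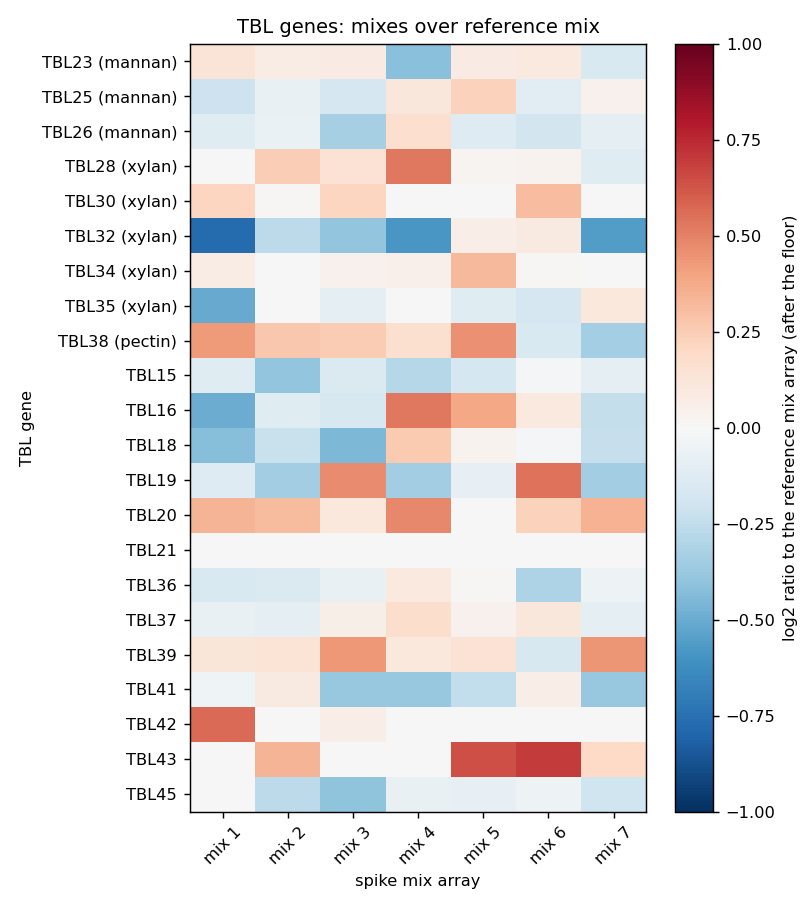
Log2 ratio of each mix array to the reference mix array after the floor (colour, from -1 to 1) for the 22 TBL genes (rows) in the 7 mixes (columns). The strongest colours are TBL32 in mix 1, at -0.77, and TBL43 in mix 6, at 0.70, and no cell reaches 1 in either direction.

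Of the 15 members above the floor on all 8 arrays, 6 had their highest signal in mix 4: TBL16, TBL18, TBL26, TBL28, TBL36 and TBL37. Of the 8399 probe sets with 1 gene that were above the floor on all arrays, 18.3% were highest in mix 4 and 21.8% in mix 6, where only TBL32 of the members was highest. Mix 1 held the lowest signal of 4 members, TBL16, TBL25, TBL32 and TBL35, beside 14.4% of those probe sets. These counts are small and were not tested.

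The spread over arrays was not the same for all members. The SD of log2 signal had a median of 0.18 over the 22 members and of 0.15 over all probe sets with 1 gene. Among the 10 members with a mean signal of at least 42.5, the table's median, it ran between 0.10 for TBL37 and 0.33 for TBL16, and the median was 0.17, beside 0.15 for the 6018 probe sets above the same level. Among probe sets of like mean signal, TBL16 lay above 92.0%, TBL18 above 74.7% and TBL37 above 6.48%. TBL16 was the 1 member that spanned at least 2-fold over the 8 arrays, beside 9.75% of all probe sets with 1 gene and 3.11% of those with a mean signal of at least 42.5. Over all members, 11 of 22 had an SD under the median of their bin of mean signal.

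TBR itself (AT5G06700) was among the steadiest probe sets of the brightest bin of mean signal. Its signals were 279.6, 282.4, 290.6, 274.9, 272.5, 285.2 and 278.6 in mixes 1 to 7, against 284.8 on the reference array, a mean of 281 ± 5.90 (SD, n = 8 arrays). All 8 arrays lay within 1.07-fold of each other, and no array stood out. Of the 3378 probe sets in the brightest bin, 2 had a smaller SD of log2 signal than its 0.030. With arrays scaled to a common median its SD was 0.056 and 74 probe sets had a smaller SD, and after quantile normalization its SD was 0.026 and 4 had a smaller SD. TBL40 (AT2G31110) has a pair of probe sets, which averaged 51.2 ± 3.87 and 62.5 ± 6.79 (SD, n = 8 arrays). In mix 5 the first was at its lowest, 43.6 against 51.2 on the reference array, while the other was at its highest, 73.6 against 65.7. The log2 ratios of the pair in mix 5, -0.23 and 0.16, lay farther apart than in any other mix, and in mix 4 both were 0.11. They describe the pair of this gene, and not probe sets of this brightness in general.

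**Figure D4:**
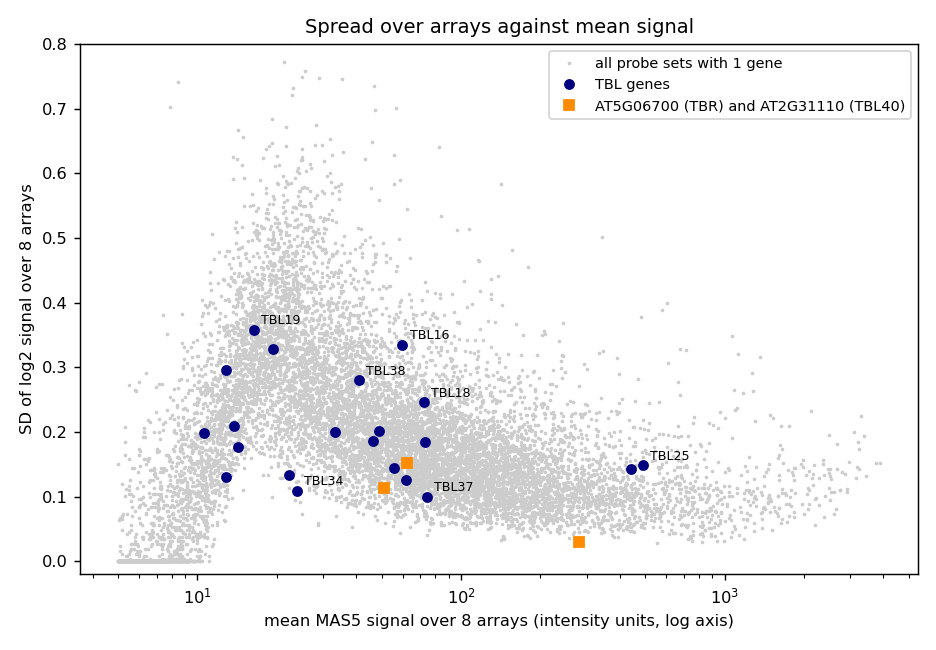
SD of log2 signal over the 8 arrays (vertical axis) against mean MAS5 signal (horizontal log axis) for all probe sets with 1 gene (grey), the TBL genes (blue) and the probe sets of AT5G06700 and AT2G31110 (orange squares); probe sets with a mean of 5 or less, TBL21 among them, and 13 with an SD above 0.8 are not drawn. AT5G06700 lies at the lower edge of the cloud at a mean of 281, and TBL16 lies high for its mean of 59.9.

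Other genes of wall polysaccharide synthesis were read from lists of 89 symbols, of which 10 probe sets could be named. All but IRX15 were above the floor on all 8 arrays, beside 62.2% of all probe sets with 1 gene. In any mix, 0 of the 10 were 2-fold higher or lower than the reference array, beside 4.73% of all probe sets. A count of 0 among 10 is not read as a trait of these genes. In xylan synthesis, GUT2, also called IRX10, a subunit of the backbone synthase, averaged 75.3 ± 13.97 and GUT1, its close relative, 114 ± 13.0, while IRX15-L, which acts in xylan formation, averaged 33.2 ± 4.14 and IRX15 lay under the floor on all arrays. COB, a GPI-anchored protein of cellulose orientation, averaged 610.3 ± 26.5, with an SD of log2 signal of 0.06. CSLA03, of the glucomannan synthase family, averaged 144 ± 14.9. Of the xyloglucan backbone synthase family, CSLC04 averaged 270.1 ± 29.1, CSLC5 139.5 ± 17.0, CSLC6 85.2 ± 17.0 and CSLC12 25.5 ± 3.71 (SD, n = 8 arrays for each). GUT1 and GUT2 were highest in mix 4, as were 18.3% of probe sets with 1 gene above the floor on all arrays. The other listed genes above the floor were highest in mixes 3, 5, 6 or 7. GUT2 had a range of 1.64-fold. The acetyl donor genes of the RWA group, the pectin list and the secondary wall markers had no probe set that could be named.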

How the data were processed

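The deposited table holds 1 intensity for each of 22810 probe sets on 8 arrays, which the authors computed with MAS5. The tool is known per the submitters' processing notes, which name no version. The values are linear, with a 2% trimmed mean of 100.0 on every array, and were used as deposited. No depth applies to arrays, and their number limits the precision.

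Gene names came from the platform annotation and, for updates, a TAIR10.1 gene table: 13513 had 1 gene (13436 matched in TAIR10.1), 503 several and 8794 are unnamed here. Values under the floor of 12.9 were set to it before log2. With 1 array for each mix no test was run; members were counted beside all probe sets with 1 gene. The 4 bins of mean signal were taken over those probe sets. Values on every array are given for the members with the 5 largest and 5 smallest SDs at a mean of at least 42.5, for members of known substrate and for TBR. Members and lists were chosen with earlier results of these data known. Protein and probe sequences were not used here. Alternatives were other floors, scalings, folds and comparators and leaving out arrays. Python 3.11.15, numpy 2.4.6 and pandas 2.3.3 were used.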

Additional observations from a re-analysis of the deposited data

Results flagged for a closer look

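For 2 of the 15 TBL genes above the floor on every array, a single array lay far from the other 7. TBL35 had a signal of 34.7 in mix 1, and the nearest of the other arrays had 43.9. TBL34 had 28.4 in mix 5, and the nearest of the others had 23.9. Chance would mark about 1 gene in 20 among replicates, but the 8 arrays carry different mixes, so they are not replicates of a group. The same count was not made over all probe sets, so 2 of 15 is not read as a trait of the TBL genes.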

How the results depend on the processing

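The number of members above the floor on all 8 arrays was 20 with the floor at the 10th percentile, 12 at the 40th and 15 under both other scalings. The number at least 2-fold from the reference array was 4 with the floor at the 10th percentile (TBL20, TBL41, TBL42 and TBL43, all near or under the main floor), or 18.2%, beside 24.4% of all probe sets with 1 gene at that floor. It was 2 at a threshold of 1.5-fold and 0 under every other setting tried. The median SD of the members was 0.11 with the floor at the 40th percentile, which holds dim genes at a constant; without mixes 4, 5 and 6, a choice made after seeing the data, it was 0.16. The median log2 ratio was 0.10 in mix 4 for a floor at the 10th percentile and 0.00 in mix 7 for the 40th. With arrays scaled to a common median it was -0.045 in mix 2, -0.024 in mix 5, -0.064 in mix 6 and -0.14 in mix 7; after quantile normalization it was -0.066 in mix 6, and with the other 7 arrays averaged as comparator 0.049 in mix 6. In mix 4 the median of the 22 members was 0.00 under both other scalings, against 0.03 as deposited. The direction in mixes 4, 5 and 6 therefore depends on the scaling. The range of 7 of the 22 members moved by more than the member's own SD when 1 array was left out. The same count was not made over all probe sets, so it is not read as a trait of the TBL genes. The SD of AT5G06700 was 0.056 with arrays scaled to a common median, against 0.030 as deposited. No paired analysis was possible because each group has 1 array.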
